A study of Mus musculus with 4 samples.

Results

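Voltage-gated sodium channel genes were described in RNA from the lumbar spinal cord of mice. The 8 genes were taken by name: the alpha subunit genes Scn1a, Scn3a, Scn7a, Scn8a and Scn9a, and the beta subunit genes Scn2b, Scn3b and Scn4b. All 8 were found among the 18674 gene names of the deposited table. The table holds 4 libraries with 1 library per group, which are wild type (WT) mice given vehicle, WT mice given spermidine (WT + SD), G93A mice given vehicle and G93A mice given spermidine (G93A + SD). SD stands for spermidine, a polyamine, throughout. G93A mice carry a transgene of mutant human SOD1 and are used as a model of amyotrophic lateral sclerosis (ALS). According to the methods they came from the G93A H1 high-expresser strain, kept on a background given as B6/SJLF1, treatment was restricted to male mice, and the animals were 100 days old when the cords were taken. SD or its vehicle, named as PBS in the labels, had been given 4 times a week over 30 days. The number of animals behind a library is not given in the sources used here. With 1 library per group there was no replicate of any group. A test that pools the SD and vehicle libraries of a genotype was not run, so no p-value is given, and the spread between animals is unknown.

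A voltage-gated sodium channel is built from 1 large alpha subunit, which forms the pore and senses voltage, and from smaller beta subunits with a single membrane span that change its gating and its place in the membrane. Such channels cluster at the axon initial segment and at the nodes of Ranvier and carry the rising phase of the action potential. Scn1a encodes Nav1.1, which is prominent in fast-spiking inhibitory neurons, and Scn8a encodes Nav1.6, the main channel of mature nodes. Scn3a encodes Nav1.3, best known from embryonic neurons, Scn9a encodes Nav1.7 of peripheral sensory and sympathetic neurons, and Scn7a encodes Nax, an atypical member linked to sodium sensing in glia. The beta 2 and beta 4 subunits of Scn2b and Scn4b are bound to the alpha subunit by a disulfide bridge, and the beta 4 tail can act as the open-channel blocker of resurgent current. The beta 3 subunit of Scn3b is bound without such a bridge.

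In GENCODE M21 (GRCm38, the build named in the methods), Scn3a, Scn1a, Scn9a and Scn7a lie in 1 cluster on the minus strand of chromosome 2. Scn3a spans 65457118 to 65567627, Scn1a 66270778 to 66440840, Scn9a 66480080 to 66634962 and Scn7a 66673425 to 66784914. Scn8a lies apart on the plus strand of chromosome 15 (100869858 to 101045938). Scn3b (40269217 to 40291618), Scn2b (45117782 to 45130070) and Scn4b (45138395 to 45154152) lie on the plus strand of chromosome 9, the last 2 as neighbours. The listed transcripts of the alpha genes have 25 to 27 exons, and those of the beta genes 5 to 7.

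The 3 members with the largest differences between genotypes, described below, were Scn1a, Scn8a and Scn4b, and the 150 bases before their RefSeq start sites (GRCm38.p6) are shown because these genes moved together. Each is written 5′ to 3′ in the direction of the gene, and capitals mark a match to a searched motif. For Scn8a, RefSeq has 2 windows and the upstream one is shown. The bases after this start are in 1 GENCODE transcript and those after the downstream start in 11.
Scn1a, chr2:66440838-66440987, minus strand: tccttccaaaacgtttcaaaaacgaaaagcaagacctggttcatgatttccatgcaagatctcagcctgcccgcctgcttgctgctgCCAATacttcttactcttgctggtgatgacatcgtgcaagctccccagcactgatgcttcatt
Scn8a, chr15:100870495-100870644, plus strand: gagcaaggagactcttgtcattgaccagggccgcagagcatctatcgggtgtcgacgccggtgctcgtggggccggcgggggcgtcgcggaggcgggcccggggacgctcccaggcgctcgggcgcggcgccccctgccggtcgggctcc
Scn4b, chr9:45138474-45138623, plus strand: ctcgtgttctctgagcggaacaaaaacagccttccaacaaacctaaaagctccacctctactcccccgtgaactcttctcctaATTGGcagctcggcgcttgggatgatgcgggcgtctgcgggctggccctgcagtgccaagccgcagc
Windows of 300 bases (250 before to 50 after a start site) were found for 6 of the 8 members, 7 windows in all. They were searched on both strands for TATAAA (the box bound by TBP), for GGGCGG (the box bound by Sp1), for CCAAT (bound by NF-Y), for CACGTG (the E-box), for TGACGTCA (cyclic AMP response element), TTCAGCACC (the left arm of the element bound by the repressor REST), TCAAGGTCA (estrogen-related receptor element) and TGACTCA (AP-1). CCAAT began at position -63 from the Scn1a start, and in reverse at position -67 from the Scn4b start. The same letters are held by 37.4% of all 32851 windows. Scn7a held the Sp1 box in reverse, which 35.7% of all windows hold, and the windows of Scn8a, Scn2b and Scn9a held none of these letters. GC content was 47.3% for Scn1a, 66.3% for Scn4b and 70.0% for the Scn8a window shown (53.3% for the downstream one), with a median of 52.7% over all windows. No searched motif was in the windows of all 3 genes shown, which says only that these letters are not there. The motifs without a match are held by 13.6% (TBP box), 7.15% (E-box), 1.79% (cyclic AMP response element), 0.371% (REST element arm), 0.423% (estrogen-related receptor element) and 5.20% (AP-1) of all windows.

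Values are RPKM (reads scaled to transcript length and to library size), a scale per length on which genes can be set side by side, and a gene with several rows is given as their mean. Scn4b had the highest level of the members, with a mean over the 4 libraries of 81.4 RPKM, which is above 97.5% of all gene names. It was followed by Scn1a (42.4 RPKM), Scn8a (28.1 RPKM), Scn2b (22.5 RPKM), Scn3b (8.21 RPKM), Scn3a (3.13 RPKM), Scn9a (1.40 RPKM) and Scn7a (0.699 RPKM). Within each library this order was kept, except that Scn2b (18.1 RPKM) stood above Scn8a (17.1 RPKM) in G93A + SD. Whether neighbours in the order differ beyond the spread between animals was not tested.

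**Figure D1:**
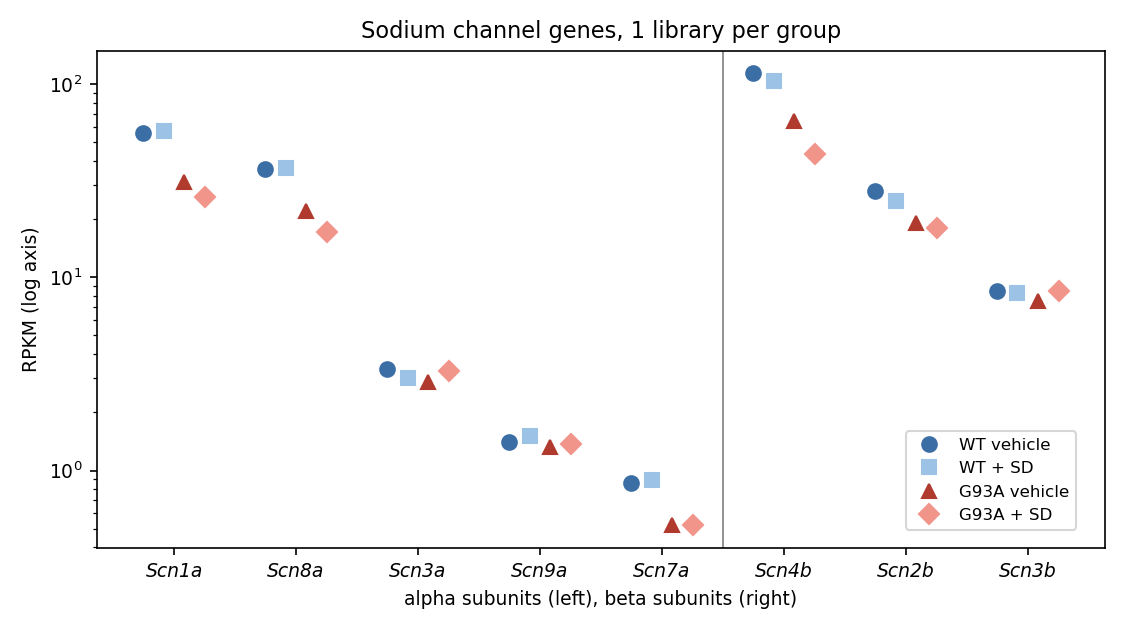
RPKM of each member in the 4 libraries on a log axis, with alpha subunits left of the line and beta subunits right of it; each symbol is 1 library. Scn1a, Scn8a and Scn4b are high and separate by genotype, with Scn4b going from 113.5 RPKM in WT vehicle to 43.5 RPKM in G93A + SD, while the 4 symbols of Scn3a, Scn9a and Scn3b lie close together.

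Scn1a stood at 55.6 RPKM (WT vehicle), 56.8 RPKM (WT + SD), 31.2 RPKM (G93A vehicle) and 26.0 RPKM (G93A + SD). Both G93A libraries were thus below both WT libraries, which differed by 2.11% from each other. Scn1a was 1.79-fold lower in G93A under vehicle and 2.19-fold lower under SD, or -0.83 and -1.13 as a log2 fold change (here and below of RPKM + 0.1). Scn8a stood at 36.3 RPKM (WT vehicle), 36.8 RPKM (WT + SD), 22.1 RPKM (G93A vehicle) and 17.1 RPKM (G93A + SD). The pattern was like that of Scn1a, with no overlap between genotypes and the lowest value in G93A + SD. Scn8a was 1.64-fold lower in G93A under vehicle (log2 fold change -0.72) and 2.16-fold lower under SD (-1.10). Its 2 listed transcripts had 36.4 and 36.1 RPKM in WT vehicle and 22.2 and 22.0 RPKM in G93A vehicle. They are nearly equal in length (11232 and 11293 bases) and can share most reads, so their likeness is not independent support.

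The other alpha genes were low. Scn3a stood at 3.34 RPKM (WT vehicle), 3.02 RPKM (WT + SD), 2.88 RPKM (G93A vehicle) and 3.26 RPKM (G93A + SD), so that the genotypes overlapped. Its log2 fold change in G93A was -0.21 under vehicle and 0.10 under SD, and neither reached 1.5-fold. Scn9a stood at 1.41 RPKM (WT vehicle), 1.51 RPKM (WT + SD), 1.33 RPKM (G93A vehicle) and 1.36 RPKM (G93A + SD). The WT values were above the G93A values, but the difference was small, with log2 fold changes of -0.079 and -0.14. Scn7a stood at 0.863 RPKM (WT vehicle), 0.891 RPKM (WT + SD), 0.522 RPKM (G93A vehicle) and 0.521 RPKM (G93A + SD). The genotypes did not overlap and the values within each genotype were nearly equal, with log2 fold changes of -0.63 and -0.67. This gene was the lowest member, with an estimated 233 read pairs in WT vehicle and 145 in G93A vehicle, and with a pseudocount of 1 RPKM its log2 fold changes of -0.29 and -0.31 no longer reached 1.5-fold.

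Of the beta subunits, Scn4b stood at 113.5 RPKM (WT vehicle), 104.0 RPKM (WT + SD), 64.5 RPKM (G93A vehicle) and 43.5 RPKM (G93A + SD). The genotypes did not overlap, and the highest value was 2.61 times the lowest, the widest range of the members. Scn4b was 1.76-fold lower in G93A under vehicle (log2 fold change -0.81) and 2.39-fold lower under SD (-1.25). Scn2b stood at 27.8 RPKM (WT vehicle), 24.9 RPKM (WT + SD), 19.2 RPKM (G93A vehicle) and 18.1 RPKM (G93A + SD). It was also lower in both G93A libraries, by 1.45-fold under vehicle and 1.38-fold under SD, which stayed under 1.5-fold. Scaling by median ratios took the vehicle difference of Scn2b to -0.60 and over that threshold. Scn3b stood at 8.50 RPKM (WT vehicle), 8.27 RPKM (WT + SD), 7.56 RPKM (G93A vehicle) and 8.52 RPKM (G93A + SD). The genotypes overlapped, with log2 fold changes of -0.17 and 0.044. The direction of the second turned to -0.022 with median-ratio scaling. Scn3b, the beta subunit without the disulfide bridge, thus stayed within 1.13-fold over all libraries.

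In G93A vehicle against WT vehicle, 4 of the 8 members (Scn1a, Scn7a, Scn8a and Scn4b) were at least 1.5-fold lower, whereas 5.31% of all 18674 names were. None was at least 1.5-fold higher, against 14.4% of all names. In G93A + SD against WT + SD, the same 4 members were at least 1.5-fold lower, against 7.82% of all names, and 0 were higher, against 17.1%. At 2-fold, 0 members were lower under vehicle, against 1.11% of all names, and 3 under SD (Scn1a, Scn8a and Scn4b), against 1.80%. Of the 7 members with a mean of at least 1 RPKM, 3 were lower in each of these comparisons, against 4.34% and 7.85% of the 12987 names above that mean. The median log2 fold change of the members was -0.58 under vehicle and -0.57 under SD, beside medians of 0.046 and 0.050 over all names. The WT libraries and the G93A libraries did not overlap for 6 members, each lower in G93A, while 28.0% of all names were lower in both G93A libraries without overlap and 39.7% were higher.

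**Figure D2:**
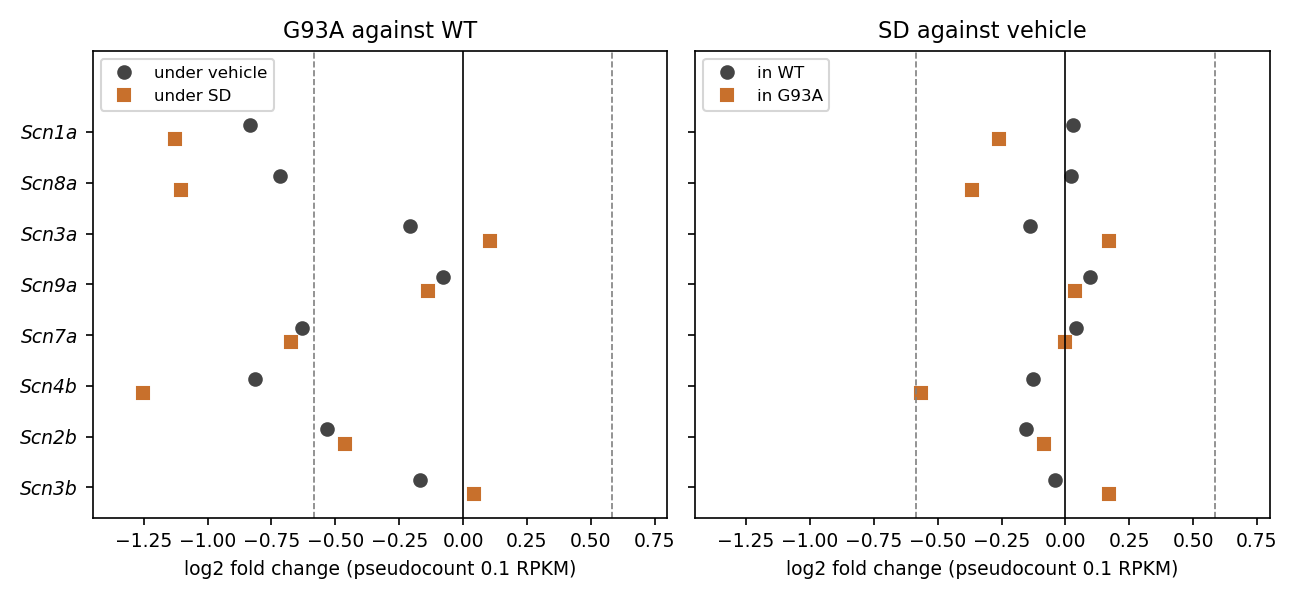
Log2 fold change (RPKM + 0.1) of each member for G93A against WT (left; circles under vehicle, squares under SD) and for SD against vehicle (right; circles in WT, squares in G93A), with dashed lines at 1.5-fold. Scn1a, Scn8a, Scn7a and Scn4b lie left of the lower line in both genotype comparisons, and no member crosses a line with SD, although Scn4b in G93A (-0.57) comes close to it.

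The place of the members among other genes was read from the 12987 names with a mean of at least 1 RPKM. Under vehicle, 142 of these names (1.09%) had a lower log2 fold change than Scn1a, 159 (1.22%) a lower one than Scn4b and 252 (1.94%) a lower one than Scn8a. Under SD the numbers were 121 (0.932%) for Scn1a, 74 (0.570%) for Scn4b and 132 (1.02%) for Scn8a. These 3 members thus lay near the lower end of all genes in both comparisons. Scn2b had 5.64% and 12.1% of names below it, and Scn9a 34.3% and 31.8%. Scn3a moved from 22.2% under vehicle to 55.9% under SD, and Scn3b from 25.7% to 49.6%.

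**Figure D3:**
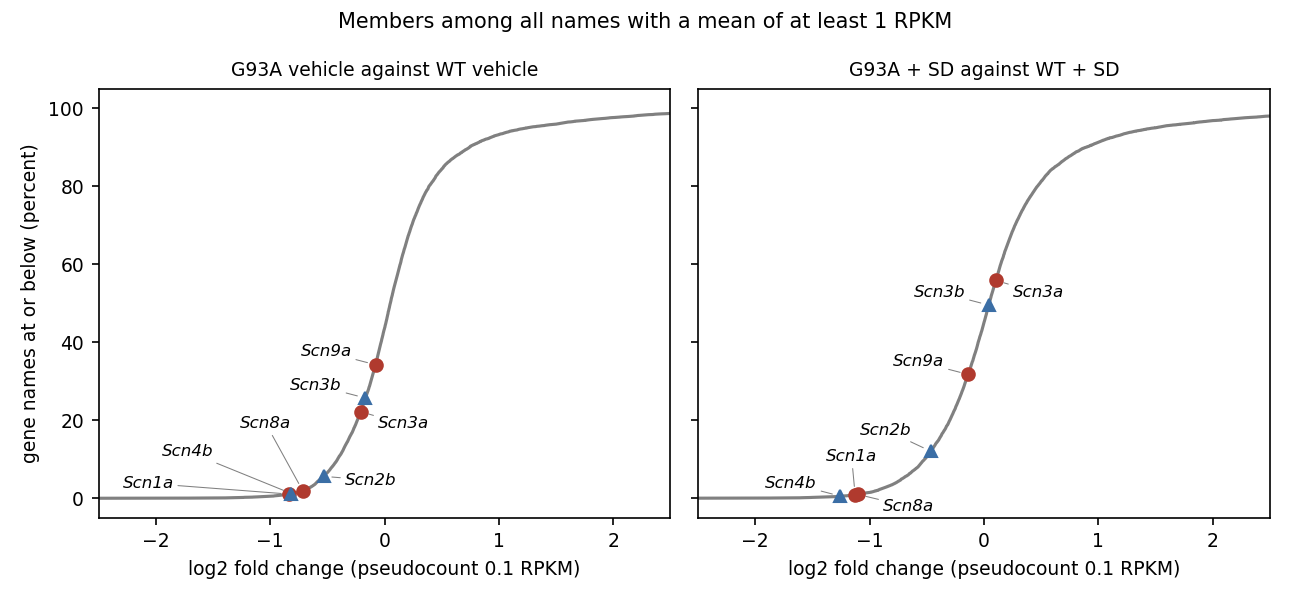
Cumulative percent of the 12987 gene names with a mean of at least 1 RPKM (grey line) by log2 fold change (RPKM + 0.1), with the 7 members above that mean marked (circles alpha, triangles beta; Scn7a is below it). Scn1a, Scn4b and Scn8a sit at the foot of the curve in both comparisons, and Scn3a and Scn3b sit near its middle under SD.

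With SD against vehicle in WT, 0 of the 8 members were at least 1.5-fold lower and 0 higher, against 2.80% and 2.25% of all names. The changes ran from -0.15 for Scn2b to 0.097 for Scn9a on the log2 scale, with 4 members below 0. In G93A, 0 members were at least 1.5-fold lower and 0 higher, against 2.55% and 2.97% of all names. Here the range was wider. Scn4b was 1.48-fold lower in G93A + SD than in G93A vehicle (log2 fold change -0.57), Scn8a 1.29-fold lower (-0.37) and Scn1a 1.20-fold lower (-0.26). Among the 12987 names with a mean of at least 1 RPKM, 134 (1.03%) had a lower log2 fold change than Scn4b, 442 (3.40%) a lower one than Scn8a and 929 (7.15%) a lower one than Scn1a. Scn3a was 13.0% higher and Scn3b 12.8% higher, and Scn2b (-0.085), Scn9a (0.039) and Scn7a (-0.0016 on the log2 scale) differed less. Compared with G93A vehicle, the value in G93A + SD lay nearer to WT vehicle for Scn3a, Scn9a and Scn3b. It lay farther from WT vehicle for Scn1a, Scn8a, Scn4b and Scn2b, and Scn7a hardly differed. The share of all names that moved each way was not computed, so nothing about the family is read from this split. The comparisons within G93A and under vehicle share the G93A vehicle library.

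The makeup of the channel pool was taken over the alpha genes with Scn2a1 (Nav1.2), Scn4a, Scn10a and Scn11a added, and over the 3 beta members, so that each sum covers the genes named here and not the whole family. The summed alpha level was 109.9 and 110.8 RPKM in the WT libraries (vehicle, then SD) and 67.5 and 57.9 RPKM in the G93A libraries. The summed level of the 3 beta members was 149.8 and 137.2 RPKM in WT and 91.2 and 70.1 RPKM in G93A. Both sums were lower in G93A, and lowest in G93A + SD. Scn1a made up 50.6% of the alpha sum in WT vehicle and 46.2% in G93A vehicle, and Scn8a 33.0% and 32.7%. Scn2a1 went the other way, from 11.2% to 14.1%, and reached 16.6% in G93A + SD against 10.6% in WT + SD. Of the beta sum, Scn4b made up 75.8% in each WT library, 70.7% in G93A vehicle and 62.1% in G93A + SD. Scn2b made up 18.2% in WT + SD and 25.8% in G93A + SD, although its own level was lower in G93A. Scn3b went from 5.67% to 8.29% under vehicle and from 6.02% to 12.2% under SD. The ratio of Scn1a to Scn2a1 in RPKM was 4.50 and 4.84 in the WT libraries (vehicle, then SD) and 3.28 and 2.70 in the G93A libraries. The ratio of Scn8a to Scn1a moved little, between 0.648 and 0.708. Shares within a library do not depend on its scaling.

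**Figure D4:**
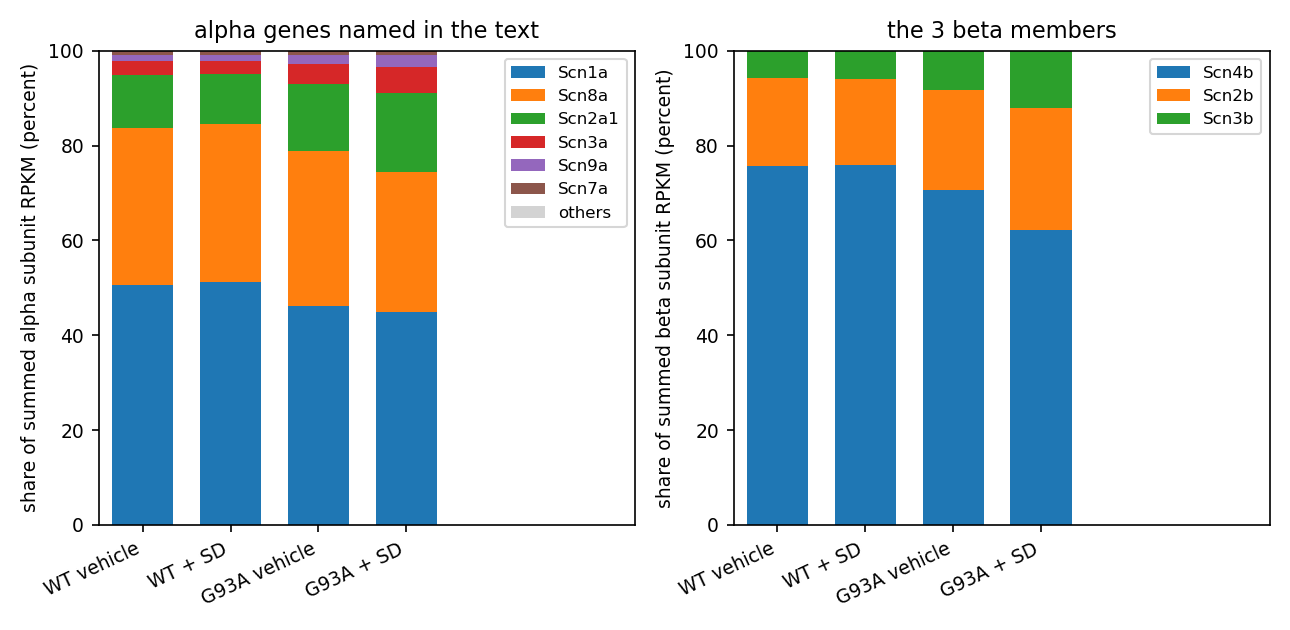
Share of each gene in the summed RPKM of the alpha genes named in the text (left) and the 3 beta members (right) in the 4 libraries, in percent. Scn1a and Scn8a fill most of each alpha bar, and the Scn4b segment shrinks from 75.8% in WT vehicle to 62.1% in G93A + SD while that of Scn2b grows.

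Of the other sodium channel genes taken here and the related leak channel Nalcn, 5 were measured, and Nalcn was at least 1.5-fold lower in both genotype comparisons (under vehicle 12.6 RPKM in G93A, 19.4 RPKM in WT). Scn2a1, the channel of unmyelinated axons and young nodes, had 12.4 and 9.51 RPKM under vehicle (-0.37) and 11.7 and 9.63 RPKM under SD (-0.28). Scn4a (the skeletal muscle channel) had a mean of 0.0191 RPKM. Scn10a and Scn11a, channels of pain-sensing neurons, had means of 0.00257 and 0.0179 RPKM, and Scn10a was listed at 0 in both WT libraries.

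Genes that hold the channels at the axon initial segment and node were mixed. Over all names, 5.31% were at least 1.5-fold lower in G93A and 14.4% higher under vehicle, and 7.82% and 17.1% under SD. These shares also stand beside the genotype counts of the lists below. Of 11 measured genes of this list, 2 were at least 1.5-fold lower and 2 higher in G93A under vehicle. Under SD 4 were lower and 2 higher, and the medians were -0.029 under vehicle and -0.38 under SD. The genes with the highest means were Cntn1 (an axonal adhesion protein), Nfasc and Nrcam (adhesion proteins that gather channels at the node), Bcan and Hapln2 (perinodal matrix). Nrcam was higher in G93A, with 52.7 RPKM in G93A vehicle against 31.3 RPKM in WT vehicle (0.75). Cntn1 was 91.4 and 95.2 RPKM (0.059), Nfasc 52.4 and 74.1 RPKM (0.50), Bcan 55.7 and 38.2 RPKM (-0.54) and Hapln2 47.1 and 46.2 RPKM (-0.029), each in WT and then G93A under vehicle. Under SD, Bcan (-0.62) and Hapln2 (45.4 RPKM in WT, 28.7 RPKM in G93A, -0.66) were at least 1.5-fold lower. Named after their values were seen, the 2 lower genes under vehicle were Cntnap1 (-0.77) and Cntnap2 (-0.68), which encode Caspr proteins of the paranode and juxtaparanode, and the other higher gene was Gldn (1.01 under vehicle, 2.04 under SD), which encodes gliomedin of peripheral nodes. Ank3, the scaffold ankyrin G that anchors the channels, had 29.5 RPKM in WT vehicle against 23.8 RPKM in G93A vehicle (-0.31).

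Among 11 intracellular and extracellular regulators, 2 were at least 1.5-fold lower and 1 higher under vehicle, and 2 lower and 1 higher under SD. Calm2 and Calm3, which encode a calcium sensor that binds the channel tail, had log2 fold changes of -0.27 and -0.30 under vehicle and -0.40 and -0.57 under SD. Fgf12, which encodes an intracellular fibroblast growth factor homologue that binds alpha subunits, stood at 61.1 RPKM (WT vehicle), 64.2 RPKM (WT + SD), 43.2 RPKM (G93A vehicle) and 34.1 RPKM (G93A + SD). Its difference was at least 1.5-fold under SD (-0.91) and not under vehicle (-0.50). Nedd4, a ubiquitin ligase of channels, had 80.9 RPKM in WT vehicle against 91.5 RPKM in G93A vehicle. Named after their values were seen, the lower genes under vehicle were Fgf11 (-0.80) and Fgf14 (-0.65), and the higher one was Tnc (2.32), a matrix protein of reactive astrocytes that binds beta subunits. Of 7 genes for proteases that cleave beta subunits, 0 were at least 1.5-fold lower and 1 higher under vehicle, and 0 and 0 under SD. Under vehicle 6 of them were above 0, with a median log2 fold change of 0.39, among them Adam10 (0.43) and Ncstn (0.51), and Bace1 was the 1 below 0 (-0.27). Under SD 5 were above 0, with a median of 0.24.

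Most markers of neurons were lower in G93A, as were Scn1a, Scn8a, Scn7a and Scn4b. Of 9 motor neuron markers, 5 were at least 1.5-fold lower in G93A under vehicle and 7 under SD, and their summed level was 1831 and 1750 RPKM in the WT libraries (vehicle, then SD) against 979 and 631 RPKM in the G93A libraries. Neurofilaments made up most of that sum. Of 5 markers of interneurons, 2 were lower by that fold under vehicle and 3 under SD. Slc6a5, the glycine transporter of inhibitory neurons, had 45.9 RPKM in WT vehicle against 21.5 RPKM in G93A vehicle. Of 5 pan-neuronal markers, 1 was lower under vehicle and 2 under SD, with a median log2 fold change of -0.39 and -0.51. Of 6 oligodendrocyte markers 0 and 1 were lower, while 4 and 5 of 6 astrocyte markers and 5 and 6 of 7 microglial markers were at least 1.5-fold higher in G93A. The part of these markers' cells in the members' values was not tested, and in bulk tissue fewer neurons and less channel RNA per neuron cannot be told apart.

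Each library was also divided by the mean of the 5 pan-neuronal markers, a scaling added after the values had been seen. It adds the same amount to the log2 ratio of every gene, 0.59 in the vehicle and 0.80 in the SD comparison of genotypes, so the order of the members stays as it was. On that scale 0 members were at least 1.5-fold lower, against 1.32% of all names under vehicle and 1.16% under SD. Snap25 makes up 62.3% of that mean in WT vehicle. With the geometric mean, in which the 5 markers weigh equally, the amounts were 0.47 and 0.57. Then 0 members were at least 1.5-fold lower under vehicle, against 1.56% of all names, and Scn4b alone under SD (-0.69), against 1.80%. With no pseudocount, the log2 ratios of G93A to WT under vehicle were -0.36 for Scn1a, -0.34 for Scn4b, -0.25 for Scn8a and -0.25 for Scn7a, and these 4 members were also below 0 under SD. Under SD, 3 members were at least 1.5-fold higher with the mean and 2 with the geometric mean, but so were 64.2% and 46.9% of all names, and nothing about the members is read from it.

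**Figure D5:**
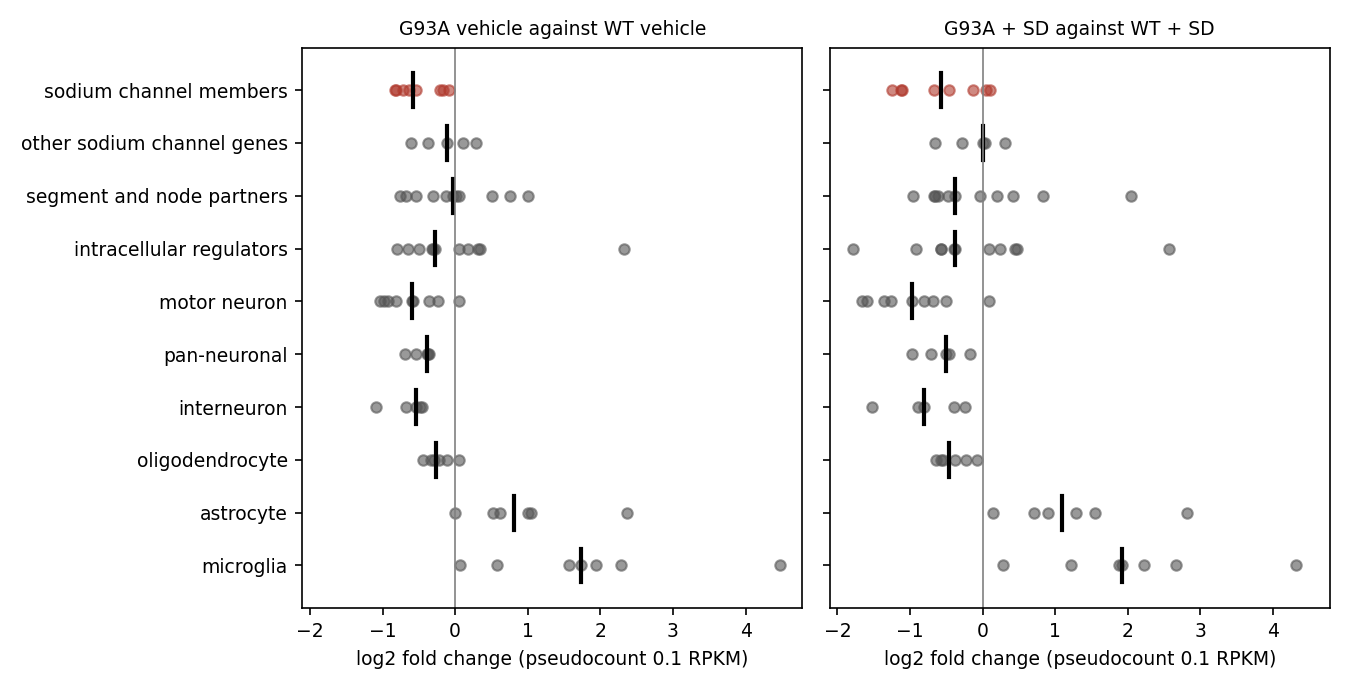
Log2 fold change (RPKM + 0.1) of the 8 members and of the measured genes of the lists named on the axis for both genotype comparisons, each point 1 gene and each black bar the median of the list. The medians of the sodium channel members (red, -0.58 and -0.57) lie in the range of the neuronal lists, and Scn3a under SD (0.10) lies just above that range. The medians of the astrocyte and microglial lists lie above 0.

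Markers of tissue that could bring in sodium channel RNA from outside the cord were also examined. Of the sensory neuron markers, Trpv1 and Prdm12 were listed at 0 in WT vehicle and were under 0.1 RPKM elsewhere, and the summed level of 17.6 to 26.0 RPKM was nearly all Calca, which motor neurons also express. Avil, the only one of the 4 measured that was at least 1.5-fold higher in G93A in both genotype comparisons, stood at 0.123 and 0.145 RPKM in the WT libraries (vehicle, then SD) and 0.553 and 0.774 RPKM in the G93A libraries. Skeletal muscle markers summed to between 0.773 and 1.05 RPKM. Schwann cell markers summed to 0.258 and 1.01 RPKM in the WT libraries (vehicle, then SD) and 1.69 and 2.89 RPKM in the G93A libraries, an order opposite to that of Scn4b and Scn2b. Their part in the values of these members was not tested.

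The alpha genes share sequence. Of the windows of a read's length (53 bases), 423 of 8064 in Scn1a (5.25%), 762 of 8498 in Scn3a (8.97%) and 503 of 9788 in Scn9a (5.14%) occur in another gene's transcript, in each case including Scn2a. How such reads were assigned is not stated, so the values of these genes are uncertain to that extent. Scn8a shared 3 of 11180 windows, and Scn7a, Scn3b and Scn4b shared 0. The antisense gene Gm13629 overlaps 180 exonic bases of Scn9a on the opposite strand, and use of strand is not stated. The estimated number of read pairs per library ran from 7441 to 15917 for the first Scn8a transcript, from 8142 to 17642 for Scn1a and from 8376 to 20818 for Scn4b, so that counting error was small for these genes.

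The genes whose profile over the 4 libraries was most like that of a member were found by the Euclidean distance between log2 profiles, each centred on its own mean, outside the sodium channel family. For Scn1a these were Cdkn1c (distance 0.038), a cell cycle inhibitor, and Slc6a11 (0.041), a GABA transporter, with 16 names within a distance of 0.1. For Scn8a they were Scrt1 (0.020), a neuronal transcription factor, and D430041D05Rik (0.041), with 30 names within 0.1. For Scn4b they were Stard4 (0.031), a sterol transfer protein, and Pla2g3 (0.083), a phospholipase, with 6 names within 0.1. Flat profiles had many more neighbours, 801 for Scn9a, 336 for Scn3b and 126 for Scn3a. The nearest were Ppp1r11 and Iws1 to Scn9a, Ciapin1 and Akap5 to Scn3b, Slc8a2 and Susd1 to Scn3a, Dgkb and Hoxc10 to Scn7a, and Mchr1 and 4922501L14Rik to Scn2b. With 4 libraries such likeness is a description of these profiles.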

How the data were processed

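Lumbar spinal cord RNA was measured in 4 libraries, 1 per group, and groups were taken from the sample labels. Per the methods, the authors selected polyA RNA, sequenced 53 bp reads, used STAR with GRCm38 and took counts by HTSeq from Ensembl gene models. The values the authors deposited were taken as RPKM, inferred from the values (the header names no unit): times transcript length they sum to nearly the same total in each library. The deposited rows are RefSeq transcripts and not Ensembl genes. How RPKM were made, and how the rows relate to the counts described, is not given in the sources used here. The ratio columns that the authors deposited hold their own comparisons and were not used.

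The rows of a name were averaged (23750 rows, 18674 names). Fold changes are of log2(RPKM + 0.1), called at 1.5-fold, with no filter and no test across genes. Lists were described by counts and medians, and some genes of the lists are not reported here and were left out of the counts and sums. The members, lists and threshold were chosen with earlier results of these data known. Genes named are the members, at most 5 per pathway list with the highest means, and the 2 most alike per member. Ank3, the marker genes and those said to be so in the text were named after their values were seen. Depth was estimated from the value of a single read pair on low rows of transcripts over 500 bases, at 36800000 to 38600000 read pairs per library, without intervals. Transcript lengths were matched for 97.0% of rows through GENCODE M21. Alternatives were other pseudocounts, scalings, row summaries, threshold and filter. A simulation with counting error only was used to check the calling code. Its planted changes were all larger than 1.5-fold and lay in genes away from the floor, so it could hardly fail. It holds no spread between animals, and nothing about the calls of the members is read from it. The work used matplotlib 3.10.9, pandas 2.3.3, numpy 2.4.6 and Python 3.11.15.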

Additional observations from a re-analysis of the deposited data

Results flagged for a closer look

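For 5 members the SD effect had opposite signs in WT and G93A, with 1 library on each side, and the difference was not tested. The share of all names with opposite signs was not computed, so this count is not a result about the members. The SD effect in G93A minus that in WT, on the log2 scale, was -0.39 for Scn8a (0.022 in WT, -0.37 in G93A), -0.29 for Scn1a (0.030 and -0.26), 0.31 for Scn3a (-0.14 and 0.17), 0.21 for Scn3b (-0.039 and 0.17) and -0.043 for Scn7a (0.041 and -0.0016). The same differences give opposite signs of the genotype effect under vehicle and SD for Scn3a and Scn3b. Scn4b was lower with SD in both genotypes, with log2 fold changes of -0.13 in WT and -0.57 in G93A.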

How the results depend on the processing

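The spread between animals is unknown with 1 library per group, and depth limits Scn7a most among the members with an estimated read number (none was estimated for Scn9a). No paired analysis was possible because the labels give no replicate numbers and each group has 1 library. A fit of genotype and treatment together, which pools libraries across groups, was not run. At a threshold of 2-fold, 0 members were lower in G93A under vehicle (1.11% of all names) and 3 under SD (1.80%). Dividing by the mean of pan-neuronal markers left 0 members lower under vehicle and 0 under SD, and 3 were higher under SD, as were 64.2% of all names. With their geometric mean the numbers were 0, 1 and 2 (46.9% of all names for the last). With the mean of these markers, the log2 fold change under SD turned to 0.027 for Scn7a, 0.62 for Scn9a and 0.34 for Scn2b. Under vehicle it turned to 0.059 for Scn2b, 0.37 for Scn3a, 0.42 for Scn3b and 0.48 for Scn9a. Scn1a, Scn8a and Scn4b stayed below 0 in both genotype comparisons. With the geometric mean, 8 of the 32 log2 fold changes changed sign. These scalings add one amount to every gene of a comparison, so their calls move for all names alike. Both pan-neuronal scalings were chosen after seeing the data. Among the other alternatives, a pseudocount of 1 RPKM took Scn7a under 1.5-fold in both genotype comparisons, and median-ratio scaling took Scn2b over it under vehicle and changed 1 sign (Scn3b under SD, not called). No pseudocount, the sum of rows and the row with the highest mean left all 32 log2 fold changes on the same side of the threshold and of 0.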
